A study of Mus musculus with 42 samples.

Results

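The aryl hydrocarbon receptor (Ahr), its dimer partners Arnt and Arnt2 and the feedback repressors Ahrr and Tiparp were followed in lung, liver and forestomach of mice dosed with BkF (benzo(k)fluoranthene), one of the polycyclic aromatic hydrocarbons. Out of 20651 genes with a named probe, the 5 were chosen by name for their role in the pathway. Earlier results of these data were known at that choice. The 5 genes are covered by 9 probes: 2 each for Ahr, Arnt, Ahrr and Tiparp and 1 for Arnt2. In lung, Ahrr mRNA rose at least 31.4-fold at the high dose and Tiparp rose with dose on both probes, with the high-dose change called on 1 of them, while no probe of Ahr or Arnt passed the test in any tissue or dose group.

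The animals were male MutaTMMouse, a transgenic strain made for scoring mutations, aged about 11 weeks. They received BkF in olive oil by oral gavage on 28 consecutive days, and tissues were taken 72 hours after the last dose. The vehicle control group (D0) received olive oil alone, and the dosed groups received 25 (D1), 50 (D2) or 100 (D3) mg/kg-bw/day. In all, 42 arrays from 15 mice were analysed, which gave 4, 3, 4 and 4 lungs, 4, 2, 3 and 4 livers and 4, 3, 4 and 3 forestomachs from D0 to D3, each array holding RNA from a random section of 1 tissue of 1 mouse. All groups shared strain, sex and vehicle, and no group without gavage was analysed here.

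Each value below is a log2 ratio of the tissue RNA over a common reference RNA made from 11 mouse cell lines, so 0 is the level of that probe in the reference and not an absence of mRNA. A ratio can be compared between mice for 1 probe, but not between probes. The change in a dose group is the difference of mean log2 ratios from D0, and a change was called at a Benjamini-Hochberg adjusted p of at most 0.05 over all probes of the tissue (limma) with a change of at least 1.5-fold. A spot was taken as detected where the scanner software marked its sample channel as well above background.

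The labelled tissues carried their defining markers: all 6 lung epithelium markers were above background on every lung array, all 6 hepatocyte markers on every liver array and all 6 stratified squamous epithelium markers on every forestomach array. Some arrays stood apart. The lung of D2 mouse 12 had a mean skeletal muscle marker ratio 5.31 above the lung median, a squamous marker ratio 4.29 above it and a macrophage marker ratio 3.06 above it. The lung of D1 mouse 7 was 3.62 above the lung median in 7 glandular stomach markers, and the liver of D3 mouse 17 was 4.78 above the liver median in muscle markers. In forestomach, the glandular stomach markers averaged 0.71 to 2.15 in 5 mice (D0 mice 1 and 4, D2 mouse 11, D3 mice 16 and 20) and 4.90 to 6.26 in the other 9. Hepatocyte markers in forestomach averaged 0.50 to 4.21, highest in D2 mouse 15 and D0 mice 2 and 3, and their part in the forestomach changes was not tested. The changes of Ahrr and Tiparp in the groups that hold these lungs and livers are given with and without them, and forestomach changes also with the glandular marker level as a covariate.

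The Ah receptor is a ligand-activated transcription factor of the bHLH-PAS family, held in the cytoplasm by chaperones until a ligand such as a planar aromatic hydrocarbon binds. It then moves to the nucleus, pairs with Arnt (or with Arnt2, best known from brain and kidney) and binds short response elements with the core GCGTG near its target genes, among them the Cyp1 enzymes that oxidise such hydrocarbons. Ahrr, a receptor-like protein that competes for Arnt and for response elements, and Tiparp, a mono-ADP-ribosyltransferase that acts on the receptor, are targets that in turn restrain the receptor.

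The promoters of both repressors are shown because their mRNA was what changed, with the core motif in capitals (GCGTG, or CACGC where it lies on the opposite strand). Both are the 250 bases before the RefSeq start of the gene on build GRCm38.p6, 5′ to 3′ on the strand of the gene, chr13:74292332-74292581 (minus) for Ahrr and chr3:65528197-65528446 (plus) for Tiparp.
Ahrr: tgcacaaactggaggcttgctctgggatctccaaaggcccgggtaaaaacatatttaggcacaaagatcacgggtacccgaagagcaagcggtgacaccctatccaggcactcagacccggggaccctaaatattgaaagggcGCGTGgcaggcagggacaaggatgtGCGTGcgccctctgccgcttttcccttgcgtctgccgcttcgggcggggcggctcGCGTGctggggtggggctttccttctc
Tiparp: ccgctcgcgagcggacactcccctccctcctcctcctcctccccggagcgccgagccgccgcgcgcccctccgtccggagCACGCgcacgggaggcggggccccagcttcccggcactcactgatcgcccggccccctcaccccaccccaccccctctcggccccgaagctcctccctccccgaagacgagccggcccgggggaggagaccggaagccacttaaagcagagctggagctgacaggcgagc
The Ahrr window held 3 copies, all on the strand of the gene and 27 to 107 bases before the start. The Tiparp window held 1 copy, on the opposite strand and 170 bases before the start. At the starts the RefSeq table uses, Arnt had 1 copy, 29 bases before the start, Cyp1a1 and Cyp1b1 had 1 each, and Arnt2 and Nqo1 had none. No promoter window was available for Ahr, so that gene was not searched. The starts used for Arnt and Arnt2 lie inside the gene spans given here. Of 32851 promoters of 300 bases (250 before and 50 after the start), 32.4% held at least 1 copy on either strand and 3.91% held at least 3. A match describes these letters and is not evidence of binding. For reference, Ahrr lies on chr13:74211118-74292331, Tiparp on chr3:65528447-65555518, Ahr on chr12:35497979-35534989, Arnt on chr3:95434367-95497240 and Arnt2 on chr7:84246274-84411741 (GRCm38.p6).

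The first question was whether the receptor gene itself responded. Ahr was detected on all 42 arrays with its main probe (A_55_P2109613, the brighter of the pair) and showed no called change with dose. In lung the log2 ratio was 1.88, 1.74, 2.23 and 1.87 in the 4 vehicle mice and 1.74, 1.61 and 1.82 at the low dose. It was 1.44, 0.39, 1.88 and 2.26 at the medium dose and 1.65, 1.67, 1.93 and 1.11 at the high dose. The groups overlapped, although 7 of 11 dosed lungs lay below every vehicle lung and only 1 lay above. The mean change over the 3 doses was -0.33 (95% interval -0.86 to 0.20, adjusted p = 0.999 in limma), an interval that reaches 1.5-fold and more on the lower side. The lowest lung, at 0.39, was D2 mouse 12, the array with muscle and squamous markers. Without it the D2 change was -0.07 in place of -0.44.

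In liver, Ahr was 0.84, 0.46, 0.53 and 0.65 in vehicle mice, 0.55 and 0.58 at the low dose, 0.58, 1.52 and 1.33 at the medium dose and 0.95, 0.97, 0.80 and 0.68 at the high dose. D2 mice 12 and 13 were the highest livers. The D2 change of 0.52 (SE 0.19) had an adjusted p of 0.358 in limma and was 0.33 without mouse 12. It passed without D2 mouse 11 (0.81, adjusted p = 0.0323). The mean over doses was 0.23 (95% interval -0.09 to 0.55). In forestomach, vehicle mice had -0.05, -0.24, -0.17 and -0.55, low-dose mice 0.28, -0.04 and -0.33, medium-dose mice -0.40, 0.11, -0.22 and -0.28 and high-dose mice -0.36, 0.37 and -0.34. All forestomach groups overlapped, and the mean change over doses was 0.14 (95% interval -0.21 to 0.50), or 0.06 with the glandular covariate.

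The second Ahr probe (A_65_P06603) was dim. It was detected on 6 of 15 lungs (1 vehicle, 2 medium-dose and 3 high-dose mice) and on no liver or forestomach, so within tissues its doses were tested in lung alone, where its mean change over doses was -0.17 (95% interval -0.45 to 0.10).

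Arnt, the obligate partner that also serves the hypoxia-inducible factors, moved little. Its main probe (A_55_P2100895) was detected on every array. In lung it was 0.03, -0.19, 0.13 and 0.12 in vehicle mice, 0.31, -0.02 and 0.16 at the low dose, 0.46, 0.07, -0.01 and 0.30 at the medium dose and 0.44, 0.28, 0.35 and 0.66 at the high dose. All 4 high-dose lungs lay above the 4 vehicle lungs, by a mean of 0.41 (SE 0.13, adjusted p = 0.423 in limma), which is under 1.5-fold and not called. The other Arnt probe (A_55_P2100899) did not follow: its high-dose change in lung was -0.08 (SE 0.11). The probes had r = -0.09 over the 15 lungs and r = -0.53 over the 42 arrays of all tissues. In liver the main probe ranged from -0.19 to 0.32 with a mean change over doses of 0.02 (95% interval -0.22 to 0.25). In forestomach it ranged from -1.14 to -0.11, and the mean change was 0.16 (95% interval -0.18 to 0.50), or 0.12 with the glandular covariate.

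Arnt2 was not well above background on any of the 42 sample channels, while the reference channel was above background on all of them. Its single probe (A_52_P260696) had ratios of -1.01 to -0.03, which are bounds and not levels, and it was not tested in any tissue.

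**Figure D1:**
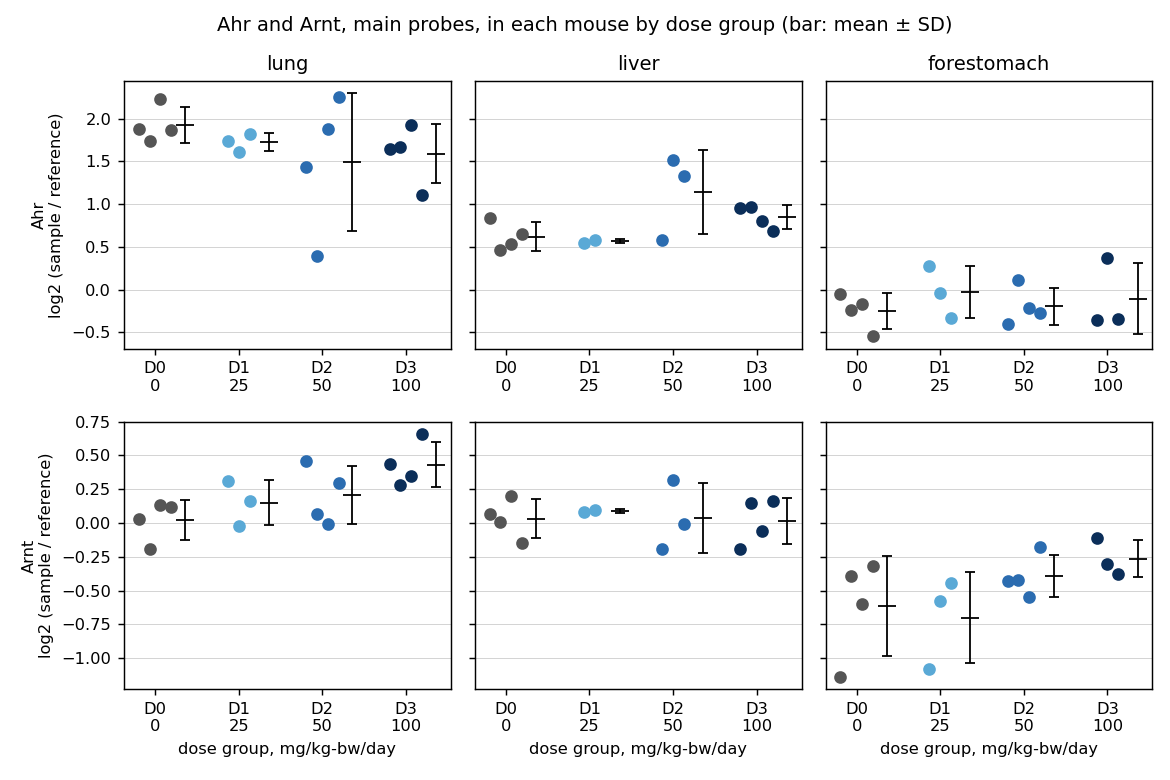
Log2 ratio of sample over reference for the main probes of Ahr (top) and Arnt (bottom) in each mouse of lung, liver and forestomach, by dose group in mg/kg-bw/day, with mean ± SD. Lungs lie highest for Ahr, with the single low value of 0.39 in D2 mouse 12, and each dose group overlaps the vehicle group of its panel except D3 for Arnt in lung.

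Ahrr gave the largest response of the 5 genes. Its main probe (A_51_P254425) was below the background limit in every vehicle lung, with ratios of -0.65, -0.74, -0.93 and -0.25, and was detected in all 11 dosed lungs. At the low dose the ratios were 1.34, 4.27 and 1.77. At the medium dose they were 4.02, 3.42, 3.97 and 2.64, and at the high dose 4.63, 4.55, 4.38 and 4.03. Every dosed lung was above every vehicle lung. D1 mouse 8, at 4.27, sat among the high-dose mice, and D1 mouse 7, the lowest at 1.34, was the lung with glandular stomach markers.

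At the high dose the change was 5.04 (SE 0.49, adjusted p = 0.00133 in limma) and at the medium dose 4.16 (SE 0.49, adjusted p = 0.00914). Because no vehicle lung was detected, the fold is a lower bound, computed from the measured spots and the faintest detected probes: at least 31.4-fold at D3, at least 16.8-fold at D2 and at least 7.70-fold at D1. The low-dose change of 3.1 (SE 0.52) was not called (adjusted p = 0.522), and leaving out D1 mouse 7 or D1 mouse 8 gave 3.66 (adjusted p = 0.132) or 2.20 (adjusted p = 0.399). The D2 call was lost without D2 mouse 11, D2 mouse 13 or D0 mouse 2 (adjusted p of 0.0591 to 0.0686), with changes of 3.99 to 4.12, and without D2 mouse 12 it stood at 4.18 (adjusted p = 0.0121). Within each of the 4 slides the D3 difference was 4.28 to 5.31. The scanner software's own log ratio, which subtracts local background, gave larger changes of 5.47 at D1, which was called (adjusted p = 0.0379), 6.47 at D2 and 7.39 at D3. In bulk tissue, more mRNA per cell and more cells that express the gene cannot be told apart.

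The second Ahrr probe (A_55_P2128388) was much fainter and moved the same way in lung, with r = 0.82 to the main probe over the 15 lungs. It was detected on 5 lungs, all from dosed mice. Vehicle lungs were at -0.01, -0.05, -0.13 and 0.10 and high-dose lungs at 1.39, 1.1, 0.97 and 0.30, with the last of these, D3 mouse 20, not detected. The D3 change was 0.96 (SE 0.20, adjusted p = 0.171), or at least 1.53-fold, and was called without D3 mouse 20 (1.18, adjusted p = 0.0218). How far a faint probe can show a large change was not tested.

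In liver, Ahrr was again undetected in every vehicle mouse, at -0.69, -0.41, -0.35 and -0.35, and detected in all 9 dosed mice. The dosed values were -0.03 and 0.11 at D1, 0.42, 2.11 and 0.50 at D2 and 0.45, 0.93, 0.32 and 0.88 at D3. Each dosed liver lay above every vehicle liver, but most by far less than in lung, with D2 mouse 12 alone above 1. The changes of 0.49 (SE 0.37), 1.46 (SE 0.32) and 1.09 (SE 0.30) had adjusted p-values of 1.00, 0.179 and 0.351 in limma, and the lower bounds were 1.39-fold, 2.38-fold and 1.94-fold. Leaving out D2 mouse 11 gave a called change of 1.76 (adjusted p = 0.0483). Without mouse 12 the D2 change was 0.91 (adjusted p = 0.0991) and the mean over doses, 1.01 with all livers, became 0.83 and passed (adjusted p = 0.0208), and without D3 mouse 17 the D3 change was 1.00. The software's own log ratio gave called changes of 4.36 at D2 and 3.88 at D3 (adjusted p = 0.0247 and 0.0204), which rest on the same undetected vehicle spots and are not measured folds.

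In forestomach, vehicle mice were at 0.04, 0.47, 0.39 and 0.05, with mice 2 and 3 detected, and low-dose mice at 0.04, 0.57 and 0.26. Medium-dose mice had 1.23, 0.96, 0.50 and 0.78 and high-dose mice 2.04, 1.27 and 1.07. The D2 and D3 groups lay wholly above D0. Squamous markers were below every vehicle forestomach (4.91 to 5.13) in 3 of 4 D2 mice (3.25, 4.38 and 4.39) and 2 of 3 D3 mice (4.30 and 4.77), and their part in the change was not tested. The D3 change was 1.23 (SE 0.24, unadjusted p = 0.000215), yet the adjusted p was 1.00 in limma, and the dose trend of 1.30 per 100 mg/kg-bw/day (SE 0.23) had an adjusted p of 0.771. With the glandular stomach marker level as a covariate the D3 change was again 1.23.

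**Figure D2:**
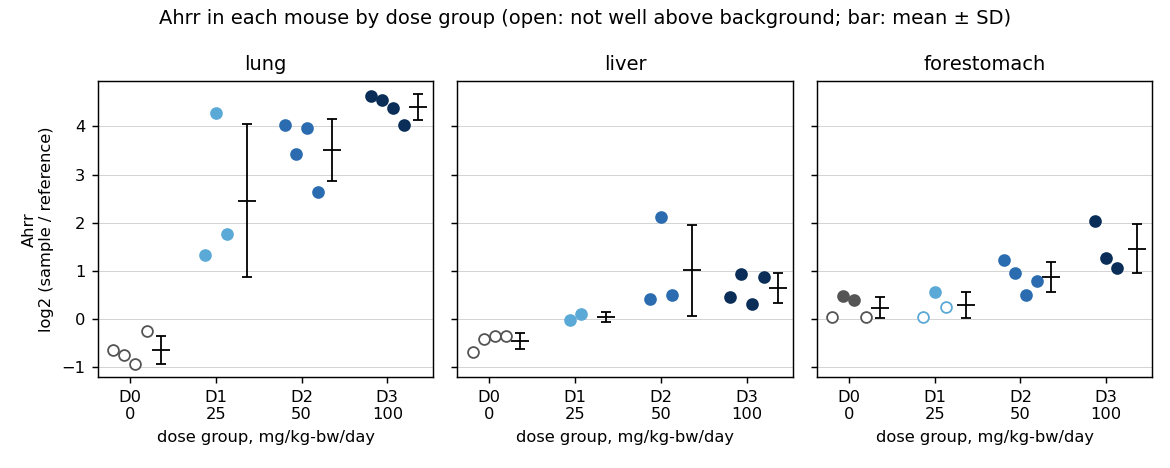
Log2 ratio of sample over reference for the main Ahrr probe in each mouse by dose group in mg/kg-bw/day, with open points not well above background and mean ± SD beside each group. Lungs rise from -0.93 to -0.25 at D0 to 4.03 to 4.63 at D3, while livers and forestomachs stay at or below 2.11.

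Tiparp, the second repressor, was detected on every array in all tissues with both probes. In lung the main probe (A_51_P514961) read -0.85, -0.82, -0.77 and -0.92 in vehicle mice and -0.87, 0.55 and -0.74 at the low dose. It read 0.19, 0.32, 0.63 and -0.47 at the medium dose and 0.92, 1.25, 0.80 and 0.35 at the high dose. All medium-dose and high-dose lungs lay above the vehicle lungs, and D1 mouse 8 was again far above the other low-dose mice. The second probe (A_55_P1985890) read 0.31, 0.22, 0.46 and 0.48, then 0.60, 1.67 and 0.46, then 1.56, 1.19, 1.91 and 0.83, and then 2.46, 2.59, 2.04 and 2.39, in the same order of mice and groups. The probes tracked each other, with r = 0.95 over the 15 lungs.

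The high-dose change was 2.00 on the second probe (SE 0.25, 95% interval 1.46 to 2.54, adjusted p = 0.00994 in limma), about 4-fold, and was called. On the main probe it was 1.67 (SE 0.29, adjusted p = 0.0745) and not called, though blocking on slide brought it past the threshold (adjusted p = 0.0496). The second probe lost its call without D3 mouse 16, D3 mouse 17 or D0 mouse 2 (adjusted p of 0.0592 to 0.0617, changes of 1.92 to 1.97), and with the software's log ratio (2.07, adjusted p = 0.0550). Medium-dose changes were 1.01 (SE 0.29) and 1.00 (SE 0.25) and low-dose changes 0.49 and 0.54, none called. Without D1 mouse 8 the low-dose changes were 0.04 and 0.16, and without D1 mouse 7 they were 0.75 and 0.70. Without D2 mouse 12 the medium-dose changes were 0.96 and 1.06.

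In liver, the main Tiparp probe was -2.72, -2.46, -2.72 and -2.55 in vehicle mice, -2.08 and -2.33 at D1, -2.01, -0.96 and -2.0 at D2 and -2.02, -1.5, -2.30 and -2.22 at D3. All 9 dosed livers lay above all vehicle livers, led by D2 mouse 12 and D3 mouse 17. Hepatocyte markers averaged 7.74 in D2 mouse 12 and 7.68 and 7.71 in D3 mice 16 and 17, against 8.17 to 8.51 in vehicle livers and 8.17 to 8.28 in the other dosed livers, and their part in the liver changes of Ahr, Ahrr and Tiparp was not tested. The changes of 0.41, 0.95 (SE 0.24) and 0.60 (SE 0.22) were not called (adjusted p = 1.00, 0.217 and 0.543). Leaving out mouse 12 gave 0.61 at D2, and leaving out mouse 17, which carried muscle markers, gave 0.43 at D3. On the second probe 6 of 9 dosed livers were above the vehicle range, with changes of 0.83 at D2 and 0.55 at D3 that became 0.55 and 0.34 without these same mice.

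Forestomach Tiparp had no called change. The main probe was -1.70, -1.49, -1.88 and -1.52 at D0, -1.69, -1.56 and -1.93 at D1, -1.58, -0.92, -1.37 and -1.65 at D2 and -1.22, -1.36 and -1.65 at D3. The groups overlapped, and the D3 change was 0.24 (95% interval -0.17 to 0.65). The second probe had a D3 change of 0.33 (95% interval 0.02 to 0.63, adjusted p = 1.00) and a trend of 0.41 per 100 mg/kg-bw/day (95% interval 0.04 to 0.78, adjusted p = 1.00). On this probe the 3 low-dose mice lay below all vehicle mice, with a change of -0.35 (SE 0.14, adjusted p = 0.367). All 3 low-dose forestomachs were among those high in glandular stomach markers, and with their level as a covariate the change was again -0.35 (adjusted p = 0.782). The low-dose forestomachs were also lower in squamous markers than every vehicle forestomach, at 3.88 to 4.49 against 4.91 to 5.13, and the part of this in the result was not tested.

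**Figure D3:**
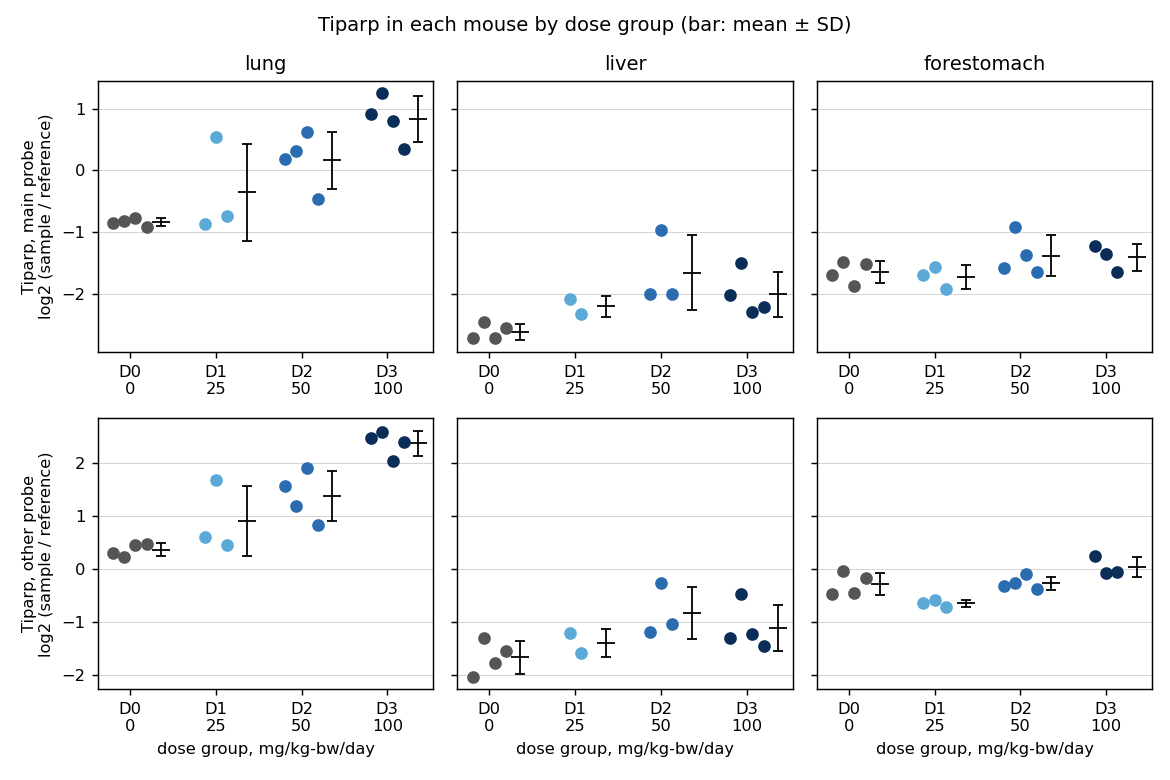
Log2 ratio of sample over reference for both Tiparp probes (main probe on top) in each mouse by dose group in mg/kg-bw/day, with mean ± SD. In lung both probes climb with dose apart from the high D1 mouse 8, in liver all 9 dosed mice sit above the 4 vehicle mice on the main probe and 6 of 9 on the second, and in forestomach the D1 mice lie below the vehicle mice on the second probe while the other groups overlap them.

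Counted over probes that passed the filter on dim spots, 1 of 8 member probes was called in lung at D2, against 0.0153% of the 32706 probes tested, and 2 of 8 at D3, against 0.0336%. For the mean over doses 1 of 8 was called (0.0214% of all probes) and for the dose trend 3 of 8 (0.0336%). Both Ahrr probes passed the filter only through dosed lungs, since neither was detected in a vehicle lung. These counts are therefore not independent of the dose effect. In lung at D1 none was called, nor was any probe of the whole array (0%), with 578 probes below an unadjusted p of 0.05 in limma. The call at D2 and for the mean was the main Ahrr probe, at D3 it was joined by the second Tiparp probe, and for the trend by both Tiparp probes. The trend was 4.68 per 100 mg/kg-bw/day for Ahrr (SE 0.71, adjusted p = 0.0269), 1.66 for the main Tiparp probe (SE 0.27, adjusted p = 0.0328) and 1.99 for its second probe (SE 0.23, adjusted p = 0.00491). The second Tiparp probe kept its trend call without each lung in turn. With the software's log ratio the trends of Ahrr (6.64) and of the main Tiparp probe (1.72) were not called (adjusted p = 0.120 for both). The Ahrr trend lost its call without any 1 of the 4 vehicle lungs, D1 mouse 7, D3 mouse 16 or D3 mouse 17 (adjusted p of 0.0524 to 0.117), and the main Tiparp probe without any of these, D1 mouse 9 or D2 mouse 11 (adjusted p of 0.0542 to 0.197). In lung each dose group also had an array column of its own on the slides, so dose and column cannot be told apart there. Liver and forestomach had the same layout apart from D3 liver mouse 20 and D0 forestomach mouse 2. Dose and column were thus nearly confounded in those tissues too.

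In liver none of the 6 member probes tested was called. All-probe shares there were 0% at D1 (469 of 30509 probes at an unadjusted p under 0.05), 0.0426% at D2, 0.0524% at D3, 0.0754% for the mean and 0% for the trend (2628 probes at an unadjusted p under 0.05). In forestomach none of 6 was called and no probe of the array was, 0% in each comparison. The limma fits had 3070, 1921 and 557 of 25326 forestomach probes at an unadjusted p under 0.05 at D1, D2 and D3, 2048 for the mean and 712 for the trend.

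**Figure D4:**
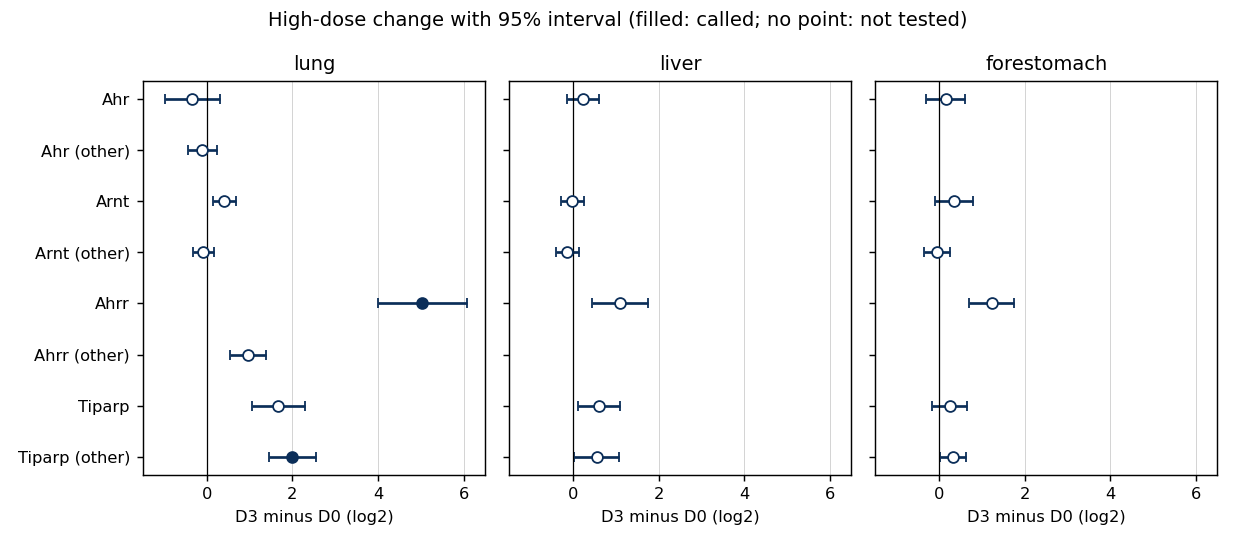
High-dose change (D3 minus D0, log2) of each member probe that was tested, with its 95% interval, in lung, liver and forestomach; filled points were called. Ahrr at 5.04 and the second Tiparp probe at 2.00 in lung are the 2 filled points, and the intervals of Ahr cross 0 in all 3 tissues.

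A separate question was whether the response differed between tissues. For Ahrr the D3 change in lung exceeded that in liver by 3.94 (SE 0.55, adjusted p = 0.000497 in limma) and that in forestomach by 3.81 (SE 0.57, adjusted p = 0.00404), and both differences were called. Each was the sole call among 8 member probes, against 0.0269% and 0.0149% of all probes. Vehicle Ahrr was at the background limit in lung and liver, so both changes compared there are lower bounds, and their difference is neither a measured size nor a bound. The first difference was 3.52 and not called with the software's log ratio (adjusted p = 0.184), and the second was 3.86 and not called with the deposited value table (adjusted p = 0.0636). Liver and forestomach differed by -0.13 (95% interval -1.30 to 1.03), with 0 of 6 member probes and 0.00604% of all probes called. The lung and liver changes are again lower bounds, and vehicle Ahrr was detected in 2 of 4 forestomachs. Neither Ahrr difference from forestomach is therefore a measured size. For Tiparp, lung exceeded liver by 1.07 (main probe) and 1.45 (second probe, adjusted p = 0.106) and forestomach by 1.43 and 1.67 (second probe, adjusted p = 0.119), none called. Without D3 mouse 17 in liver, the array with muscle markers, the second probe passed against liver (1.66, adjusted p = 0.0353). Differences for Ahr were -0.57 and -0.49 and not called.

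In vehicle mice the tissues already differed in these genes. For Ahr the order of vehicle levels was lung (mean 1.93), liver (0.62) and forestomach (-0.25), with steps of 1.31 (SE 0.25, adjusted p = 2.43e-05) and 0.88 (SE 0.25, adjusted p = 0.00308) that were both called in limma. The dim second Ahr probe was detected in 1 of 4 vehicle lungs and in no vehicle liver or forestomach, so its differences (0.35 and 0.53, not called) are between values at background and add nothing to this order. For Tiparp the order was lung, forestomach and liver. Lung exceeded forestomach by 0.81 (adjusted p = 0.00771) and liver by 1.77 (adjusted p = 2.08e-07). The liver minus forestomach difference was -0.96 (adjusted p = 0.00150). The second Tiparp probe gave the same order, with all 3 differences called. That of lung over forestomach, 0.65, lost its call without D0 forestomach mouse 1 (0.59, adjusted p = 0.0522) and with the deposited value table (0.55, under 1.5-fold).

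Arnt did not order the tissues the same way on its probes. On the main probe lung and liver differed by -0.01 (95% interval -0.31 to 0.30), while both exceeded forestomach by 0.64 (adjusted p = 0.000654 and 0.000478). The call rests on D0 forestomach mouse 1, the lowest at -1.14: without it the differences were 0.46 and 0.47, under 1.5-fold. The second probe gave -0.19, -0.13 and 0.05, none called. Vehicle Ahrr was detected only in 2 forestomachs, and no tissue difference was called for it. The largest, lung minus forestomach on the main probe, was -0.88 (adjusted p = 0.0589 in limma). It passed in 1 of 8 fits with an array left out (adjusted p = 0.0464), and rests mostly on undetected spots. Tissue differences were common on the whole array: 40.8% of probes were called between lung and liver, where 3 of 8 member probes were, 33.5% between lung and forestomach (4 of 8) and 37.5% between liver and forestomach (4 of 6). Lungs and forestomachs shared slides while livers were on others and were read with another software version, so slide and tissue cannot be told apart for liver. On the shared slides lungs were all in array row 1 and forestomachs all in row 2, so row and tissue cannot be told apart for that pair.

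Set against the receptor in the same array, both repressors rose in lung. The difference of Ahrr minus Ahr, on log2 ratios of the main probes, was -2.57 ± 0.43 (SD, n = 4) in vehicle lungs and 1.96 ± 1.31 (SD, n = 11) in dosed lungs. The shift was 4.53, higher in 11 of 11 dosed lungs than in any vehicle lung (exact permutation test, two-sided p = 0.00147, the smallest the design allows, adjusted p = 0.00840 over 6 tests). Tiparp minus Ahr shifted by 1.45, with 8 of 11 dosed lungs above all vehicle lungs (exact permutation test, p = 0.0103, adjusted p = 0.0206). That last call was lost without D0 mouse 3 or D0 mouse 4. Vehicle Ahrr was undetected in lung and liver, so the sizes of the Ahrr shifts there rest on spots at background and are bounds. Leaving out mouse 12 gave 4.42 and 1.32, and leaving out mouse 7 gave 4.77 and 1.58.

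In liver, Ahrr minus Ahr shifted by 0.82, with 9 of 9 dosed livers above all vehicle livers (exact permutation test, p = 0.00280, the smallest possible, adjusted p = 0.00840). This was 0.71 without mouse 12 and 0.79 without mouse 17. Tiparp minus Ahr shifted by 0.41 in liver (exact permutation test, adjusted p = 0.0630) and passed without D0 mouse 2 (0.52, adjusted p = 0.0409). In forestomach the shifts were 0.50 for Ahrr and 0.02 for Tiparp (exact permutation test, adjusted p = 0.211 and 0.911).

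Whether mice with more receptor mRNA had more repressor mRNA was asked across dosed mice alone. In lung, no relation of Ahr with either repressor was detectable at this number of mice: r = -0.17 and rho = -0.20 with Ahrr and r = -0.17 and rho = -0.05 with Tiparp (11 mice, permutation test, adjusted p of 0.686 to 0.906 for r and rho). Without mice 12 and 15, r was -0.22 and -0.04. The repressors followed each other, with r = 0.95 (permutation test, p = 2e-05, the smallest these resamples give, adjusted p = 0.000180) and rho = 0.92 (adjusted p = 0.00144) over 11 lungs. Without mice 7 and 9, r was 0.90. Taken as deviations from slide means, r was 0.95 for the repressors (exact permutation within slides, adjusted p = 0.0208), and -0.07 and 0.01 for Ahr with Ahrr and with Tiparp (adjusted p = 1.00). The dose groups themselves spread along this line.

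In liver the relations were weaker without the 2 mice farthest from the median. Ahr with Ahrr had r = 0.75 and rho = 0.80 over 9 dosed livers, Ahr with Tiparp r = 0.74 and rho = 0.65 and Ahrr with Tiparp r = 0.88 and rho = 0.73, with adjusted p from exact permutation tests of 0.0621 to 0.123 for r and rho. Without mice 12 and 13 the first pair fell to 0.59 and 0.57, and without mice 12 and 17 the third fell to 0.12. As deviations from dose group means the third had r = 0.85 (permutation test, adjusted p = 0.0232). As deviations from slide means the 3 pairs had r of 0.75, 0.85 and 0.93 (exact permutation within slides, adjusted p = 0.0837, 0.0208 and 0.0396), so 2 of them passed. In forestomach r was -0.26 for Ahr with Ahrr, 0.30 for Ahr with Tiparp and 0.53 for Ahrr with Tiparp (rho of -0.33, 0.16 and 0.62), none below an adjusted p of 0.120 over the 9 relations (permutation test, 10 mice). Leaving out the mice farthest from the median gave -0.28, 0.60 and 0.38, and deviations from slide means gave -0.39, 0.00 and 0.49.

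**Figure D5:**
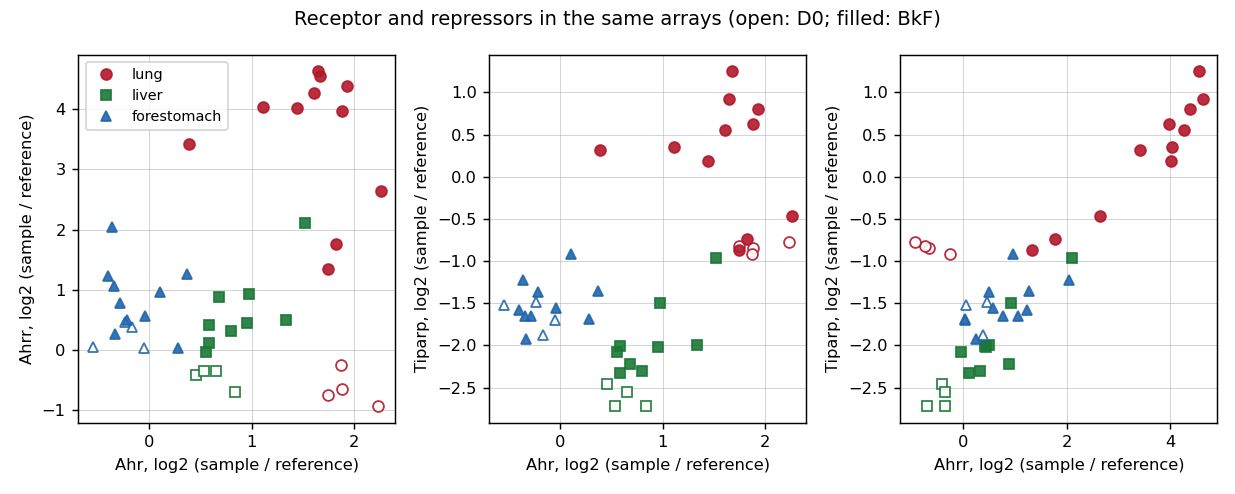
Log2 ratios of Ahr, Ahrr and Tiparp (main probes) plotted against each other, 1 point per array, with open points for vehicle and filled points for dosed mice of lung, liver and forestomach. Dosed lungs show no detectable relation of either repressor with Ahr (r = -0.17 for both) and a rising line of Ahrr with Tiparp (r = 0.95).

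The genes whose lung pattern was most like Ahrr, by Pearson r over the 15 lungs, were Cyp1b1 (0.992), Cyp1a1 (0.973), Lpar6 (0.912), Nqo1 (0.898) and Limk1 (0.892). For Tiparp they were Limk1 (0.935), Exoc3 (0.930), Lpar6 (0.912), Cyp1b1 (0.906) and Ackr3 (0.905). These values describe arrays that share dose groups and slides. Of these genes, Cyp1b1 and Cyp1a1 alone were called at the high dose in lung. The high-dose changes of the others were 0.57 for Lpar6, 0.72 for Limk1, 0.44 for Exoc3 and 1.46 for Ackr3 (a chemokine scavenger receptor). For Ahr over all 42 arrays the nearest patterns were Septin4 (0.953), Sh2d3c (0.945), Arl15 (0.942), Wwc1 (0.938) and Wdr45 (0.937), each highest in lung and lowest in forestomach, as Ahr was.

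Of the enzymes that the receptor is best known to induce, Cyp1a1 and Cyp1b1 gave the scale of the response. Cyp1a1, which oxidises polycyclic aromatic hydrocarbons, was 3.29, 2.35, 2.09 and 2.96 in vehicle lungs and 3.96, 9.28 and 7.10 in low-dose lungs. It was 8.46 to 9.57 in medium-dose lungs and 9.29 to 9.73 in high-dose lungs, a D3 change of 6.81 (SE 0.75, adjusted p = 0.00341 in limma). Cyp1b1 rose by 6.14 (SE 0.70, adjusted p = 0.00375), from a vehicle range of -2.64 to -1.42 to 3.69 to 4.37. In low-dose lungs Cyp1b1 was -0.26, 4.04 and 0.94. Mouse 8 was thus the highest and mouse 7 the lowest of the low-dose lungs in Ahrr, Cyp1a1, Cyp1b1 and the main Tiparp probe. Nqo1, a quinone reductase, changed by 1.65 (SE 0.32, adjusted p = 0.141).

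Outside lung these enzymes were not called in any comparison of a dose with vehicle. Liver Cyp1a1 was undetected in vehicle mice (-0.09 to 0.23) and in low-dose mouse 9 (-0.02), and 2.62 to 7.15 in the other dosed livers. The D3 change of 5.26 (SE 1.03, adjusted p = 0.131) was against undetected spots, and the level was at least 27.1-fold higher at D3. The highest liver, D2 mouse 12 at 7.15, was the highest in Ahrr and Tiparp as well. In forestomach Cyp1a1 ranged from -0.39 to 0.60 at D0 and from 2.08 to 4.66 at D3, with a change of 3.24 (SE 0.85, adjusted p = 1.00) against a vehicle group detected in 1 of 4 mice. Cyp1a2, the remaining Cyp1 enzyme, did not follow: it was 6.11 to 6.42 in vehicle livers and 5.81 to 6.44 in high-dose livers. In lung and forestomach it was too dim to be tested.

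Around the receptor, 7 lists of related genes were set beside the members, with the probe of highest intensity for each gene. Only the list of receptor targets had a call: 2 of its 9 genes tested in lung at D3, Cyp1a1 and Cyp1b1, both higher, with a list median of 0.68 against 0.00 over all probes, where 0.0336% of probes were called. The same 2 genes were called in lung at D2 (0.0153% of all probes) and for the mean of doses (0.0214%), and Cyp1b1 for the trend (0.0336%). No gene of the other lists was called in any tissue or dose group.

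Among chaperones of the cytoplasmic receptor complex, Hsp90aa1 had a value of -0.31 and Hsp90ab1 one of -0.13 in lung at D3, neither called. Among 9 coregulators and partners the median was 0.05, with Ncoa3 at 0.38, Klf6 at 0.36 and Relb at 0.15. None of these moved by 1.5-fold. Of 8 other partners of Arnt, 5 were tested, with a median of 0.14, Hif3a at 0.31, Sim2 at -0.28 and Npas4 at 0.21.

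In the same comparison (lung at D3), the 8 hypoxia targets that need Arnt had a median of 0.07. Vegfa was at -0.41, Slc2a1 at 0.31 and Ndrg1 at 0.27. Over the dose groups of all tissues the median of this list ran from -0.03 (forestomach D3) to 0.51 (forestomach D1), with no gene called. Of 14 PARP family relatives of Tiparp, all were tested in lung. Their median at D3 was -0.01, with Parp1 at -0.38, Parp3 at -0.21 and Tnks at 0.19. The circadian relatives of the receptor, 6 of 7 tested, had a median of 0.04 in lung at D3. Arntl was at -0.97 (SE 0.30, adjusted p = 0.420 in limma), Per1 at 0.72 and Per3 at 0.54. Arntl was 0.30, 0.87, 0.85 and -0.19 in vehicle lungs and -0.29, -0.67, -0.11 and -1.0 in high-dose lungs, which overlap.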

How the data were processed

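Tissue RNA (Cy5) and Universal Mouse Reference RNA (Cy3) were hybridised together on 2-colour Agilent arrays with no dye swap. Per the file headers, the deposited median spot intensities of both channels and the log10 ratio of red over green came from Feature Extraction 10.7.3.1 (lung, forestomach) or 11.0.1.1 (liver); the intensities were not background-subtracted and the log10 ratio was. The value table deposited by the authors holds normalised log2 ratios of sample over reference. Its lung and forestomach columns had r of 0.994 to 0.999 with the scanner values of the same array, so the direction was the same. Their medians were -0.0425 to -0.0261, and neither quantity tests the scale. Its 13 liver columns did not match the scanner values and were not used.

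The log2 of red over green median intensity was normalised by loess within each array with limma 3.58.1 (R 4.3.3), without background correction, spots of a probe were averaged, and control spots were left out. Within a tissue, probes well above background in the sample channel on at least 3 (lung, forestomach) or 2 (liver) arrays were tested with lmFit and eBayes over the 4 dose groups. Tissues were compared in a fit over all arrays. Permutation tests used scipy 1.17.1 and 100000 resamples where not exact. Mice are separate animals, and the number of arrays limits the precision.

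The same mouse number in different tissues marks the same animal. Over 39 pairs of tissues of a mouse the deviations from group means had r of -0.159 to 0.327, and the consensus correlation was 0.0594. The alternatives were another background correction, the software's log ratio, the value table, reference channel quantiles, no filter on dim probes, slide or mouse as a block, only the groups compared, the glandular stomach level as a covariate and each array left out. Leaving out the arrays that stood apart from the differences between repressor and receptor, and relations on deviations from slide means, were chosen after seeing the data.

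The members and gene lists were chosen with earlier results of these data known. Named genes are all members with every probe (the main probe is the one of highest mean intensity). The genes of each list that were called or had the 3 largest changes in lung at the high dose are also named. So are the readouts Cyp1a1, Cyp1b1, Cyp1a2 and Nqo1 and the 5 nearest patterns. A result of the chaperone list is not reported here. Gene names came from the scanner files and RefSeq, with 27224 of 55681 probes named.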

Additional observations from a re-analysis of the deposited data

Results flagged for a closer look

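The high-dose change of Ahrr (probe A_51_P254425) differed between tissues by a test of the difference itself, with lung exceeding liver by 3.94 (adjusted p = 0.000497 in limma) and exceeding forestomach by 3.81 (adjusted p = 0.00404) on the log2 scale. Vehicle Ahrr was undetected in lung and liver, so those changes are bounds and their difference is neither a measured size nor a bound. With vehicle Ahrr detected in 2 of 4 forestomachs, the difference from forestomach is not a measured size either. The first difference was not called with the software's log ratio (3.52, adjusted p = 0.184 in limma), nor the second with the deposited value table (3.86, adjusted p = 0.0636). High-dose lungs read 4.03 to 4.63, high-dose livers 0.32 to 0.93 and high-dose forestomachs 1.07 to 2.04. By Dixon's test no mouse lay far from the others of its group in any of 48 sets of values (1 probe in 1 group of 4 mice), where chance would give about 1 in 20. Groups of 2 or 3 mice, among them lung D1 with mouse 8 and liver D2 with mouse 12, were not tested.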

How the results depend on the processing

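Over 3004 alternative values no called change reversed, and 2525 of 2582 values for single probes stayed on the same side of the threshold. Among values not past the threshold, 102 changed sign. With the scanner software's log ratio, 1 member probe was called in each of lung D1, lung D3, lung trend, liver D2, liver D3 and the liver mean of doses. With only the 2 groups compared, 1 was called in liver at D3. With the authors' value table, 0 were called for the D3 effect and 2 for the vehicle level between lung and forestomach. With D3 as the sole dosed group, the shifts of lung Ahrr minus Ahr (5.38), lung Tiparp minus Ahr (2.01) and liver Ahrr minus Ahr (0.87) had an adjusted p of 0.0571 by the exact permutation test, whose smallest raw p there is 0.0286. Taken as deviations from dose group means, Ahrr and Tiparp in liver had r = 0.85 (permutation test, adjusted p = 0.0232). Taken as deviations from slide means, an alternative chosen after seeing the data, r in liver was 0.85 for Ahr with Tiparp and 0.93 for Ahrr with Tiparp (exact permutation, adjusted p = 0.0208 and 0.0396). The cause of these differences was not tested.

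Leaving out 1 array at a time gave 0 to 1 called member probes in lung at D2, 1 to 3 at D3 and 1 to 4 for the lung trend. It gave 0 to 2 in liver at D2 and 0 to 1 for the liver mean and the liver trend, the trend passing without D2 mouse 12 (Ahrr 1.07, adjusted p = 0.0423 in limma). The D3 effect gave 1 to 2 for lung against liver and 1 to 2 for lung against forestomach, and the vehicle level 2 to 5 for lung against forestomach. The shift of Tiparp minus Ahr was 1.37 to 1.52 in lung and 0.31 to 0.52 in liver without each vehicle mouse in turn, and 1.32 to 1.58 in lung with the omissions of dosed mice 7 and 12 included.

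With the mouse as a replicate block, the Ahrr D3 effect was 3.94 for lung minus liver and 3.82 for lung minus forestomach, the counts were 1, 1 and 0 for the D3 effects and 3, 4 and 4 for the vehicle levels, and no call changed. The value table alternative was not run for liver. Spots near background limit vehicle Ahrr in lung and liver, the second Ahr and Ahrr probes and Arnt2.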

Other observations

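Exoc3, a subunit of the exocyst complex and the neighbour of Ahrr on chromosome 13, was among the nearest lung patterns to Tiparp. That it adjoins Ahrr was noticed after its values were seen. On GRCm38.p6 the genes lie 1086 bases apart. Its probe A_52_P180842 read 0.57, 0.52, 0.75 and 0.68 in vehicle lungs and 0.67, 1.01 and 0.75 at the low dose. It read 0.81, 0.99, 0.95 and 0.74 at the medium dose and 1.12, 1.07, 1.05 and 1.03 at the high dose. All 4 high-dose lungs were above all vehicle lungs, with a change of 0.44 (SE 0.10, adjusted p = 0.206 in limma), which was not called. Over the 15 lungs its r was 0.89 with Ahrr and 0.93 with Tiparp. The second Exoc3 probe, A_52_P44030, had r of 0.06 and -0.04 and a high-dose change of -0.09.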
